A study of Arabidopsis thaliana with 12 samples.

Results

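Poly(A) RNA of Arabidopsis thaliana seedlings was carried through the capture of tagged molecules without the tagging enzyme, and was set against poly(A) RNA that had been neither treated with the enzyme nor captured. These libraries are 4 of the 12 libraries of the series, chosen by their labels: 3 replicates of enriched poly(A) RNA without ADPRC (adenosine diphosphate ribosylcyclase) and 1 library of unenriched poly(A) RNA without ADPRC. All of them came from 12-day-old Col-0 seedlings grown on plates without special treatment, and were read by Nanopore direct RNA sequencing. Beside them, 3 enriched and 3 unenriched poly(A) libraries with ADPRC are used for comparison, and 1 enriched total RNA library with ADPRC and 1 without it are mentioned at the end. Nothing in the labels ties the replicates to separate cultures, so the p-values cover only the spread among these libraries and that spread may be technical. The labels also do not say whether the enriched and unenriched libraries shared an RNA extract or a run, so capture and preparation cannot be told apart.

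Some RNAs carry the coenzyme NAD+ at their 5′ end in place of the usual cap. In NAD tagSeq, ADPRC exchanges the nicotinamide of that NAD+ for a group to which a synthetic tag RNA can be joined, the tagged molecules are pulled down, and the tag is read together with the transcript on the Nanopore. Without ADPRC no tag should be joined through this reaction, so a library without it holds RNA that stayed in the preparation on other grounds, and any tagged read in it is background.

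The 3 enriched libraries without ADPRC held 390009, 520804 and 948433 reads, and the unenriched library held 434742. Levels are given as CPM (counts of reads scaled to the library's total of all reads), with no correction for transcript length. A gene with 0 reads in the unenriched library may have had up to 6.90 CPM (3 reads). The seedling label was checked against organ markers. The 3 leaf and photosynthesis markers summed to 53130 to 55405 CPM in the enriched and 53356 CPM in the unenriched libraries without ADPRC, the 4 root markers to 2379 to 2852 and 2841 CPM, and the 5 seed storage genes to at most 5.13 CPM. Replicates of the enriched libraries were not copies of one library, with a chi-square per gene of 2.28 to 2.55.

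Without the enzyme, a small set of transcripts stood up to 66.2-fold higher in the enriched libraries than in the unenriched one. The 18S ribosomal RNA genes stood 8.33-fold and 9.92-fold lower. Of 16073 genes with reads in at least 3 of the 4 libraries, 267 were higher (1.66% of those tested) and 66 lower (0.411%) in the enriched libraries than in the unenriched one, at an adjusted p under 0.05 in limma on log2(CPM + 2.11). At an unadjusted p under 0.05 there were 2301 genes. Among the 1519 genes with 100 CPM or more in either group, 91 were higher and 53 lower, and 8 called genes were more than 4-fold higher and 7 more than 4-fold lower. The median gene changed by 0.10 on the log2 scale. The split between directions depended on the scaling and the test: median centring gave 84 higher and 60 lower, edgeR with TMM scaling 74 and 160, and DESeq2 19 and 40. No gene was called with no filter on low genes or without enriched replicate 3, and all calls rest on 1 unenriched library whose spread is assumed to equal that of the enriched ones.

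**Figure D1:**
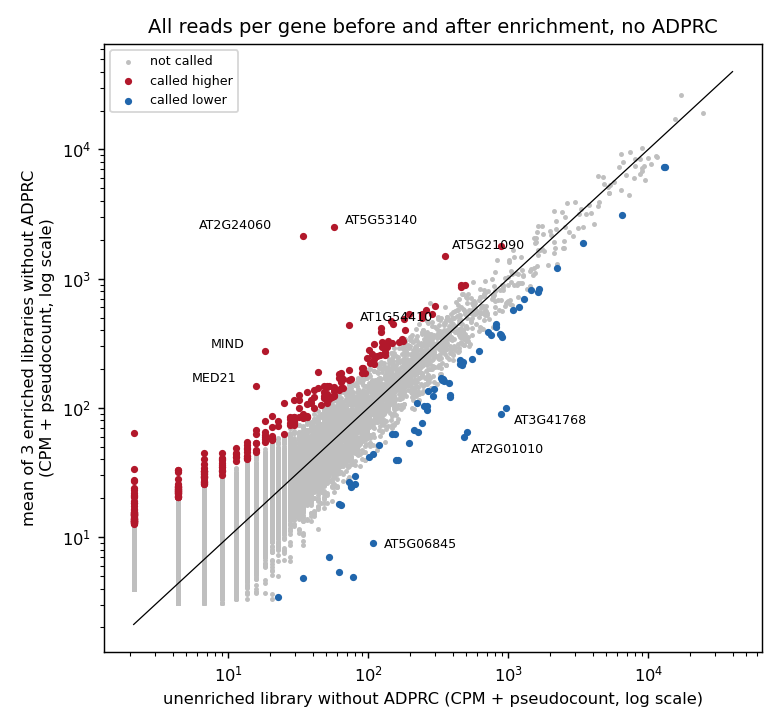
Level of each tested gene in the unenriched library without ADPRC (x axis) against the mean of the 3 enriched libraries without ADPRC (y axis), both as CPM plus the pseudocount of 2.11 on log scales; red and blue points are the 267 genes called higher and the 66 called lower, and the line marks equal levels. AT2G24060, AT5G53140, MIND and MED21 stand above the cloud and AT3G41768 and AT2G01010, both ribosomal RNA genes, below it.

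The largest gains were in AT2G24060 and AT5G53140, which were minor transcripts before capture and among the abundant ones after it. AT2G24060 encodes a protein of the translation initiation factor IF-3 family. It stood at 1387, 2757 and 2250 CPM in the enriched replicates 1, 2 and 3 without ADPRC and at 32.2 CPM in the unenriched library. Every enriched library lay far above the unenriched one, a 66.2-fold difference of means and a log2 change of 5.90 ± 0.27 (SE; limma adjusted p = 5.53e-17). AT2G24060 overlaps QWRF4 in the annotation. QWRF4 had 35.9, 76.8 and 73.8 CPM in the enriched libraries and no read in the unenriched one, at least 9.01-fold higher with the floor of 3 reads in that library, and reads of the overlapping genes cannot be assigned with certainty.

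AT5G53140 encodes a member of the type 2C protein phosphatase family. Its level was 2023, 2698 and 2773 CPM in the enriched libraries and 55.2 CPM in the unenriched library without ADPRC. The groups did not overlap, and the mean of 2498 ± 413 CPM (SD, n = 3) was 45.2-fold the unenriched level (log2 change 5.43 ± 0.23 SE, limma adjusted p = 1.67e-17). The annotation table lists no gene that overlaps AT5G53140.

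Below these came MIND and MED21, whose replicates were close to each other. MIND (AT5G24020), which helps to place the division site of chloroplasts, had 269, 267 and 278 CPM in the enriched libraries and 16.1 CPM in the unenriched one. This was a 16.9-fold difference and a log2 change of 3.91 ± 0.27 (SE; limma adjusted p = 1.24e-11). MED21 (AT4G04780), a subunit of the Mediator complex that links transcription factors to RNA polymerase II, had 144, 134 and 160 CPM against 13.8 CPM. It was 10.6-fold higher (log2 change 3.22 ± 0.31 SE, limma adjusted p = 2.29e-08), and the unenriched level rests on 6 reads.

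The other members of the 10 largest gains, 4.12-fold to 6.10-fold by their means, served varied functions. AT1G54410, a small dehydrin, had 215, 557 and 534 CPM against 71.3 CPM in the unenriched library, so that enriched replicate 1 was well below the others yet above the unenriched library. AT2G04520, a translation initiation factor of the eIF1A family, had 94.9, 92.2 and 133 CPM against 23.0 CPM. AT5G21090, a leucine-rich repeat protein, was abundant before capture as well, with 2008, 1060 and 1414 CPM against 352 CPM. RHON1, a chloroplast RNA-processing protein, had 123, 121 and 125 CPM against 29.9 CPM. AT4G38080 and AT3G28770 completed the set with log2 changes of 2.09 and 1.93. The adjusted p-values of these 6 genes in limma lay between 7.55e-06 and 0.00105.

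Both 18S ribosomal RNA genes were among the largest losses. AT3G41768, an 18S ribosomal RNA gene, had 79.5, 113 and 100.2 CPM in the enriched libraries and 968 CPM in the unenriched one. It was 9.92-fold lower after capture, and its log2 change was -3.30 ± 0.27 (SE; limma adjusted p = 7.79e-10). AT2G01010, a second 18S gene, had 48.7, 65.3 and 59.0 CPM against 481 CPM, 8.33-fold lower with a log2 change of -3.02 ± 0.30 (SE; limma adjusted p = 3.55e-08). The 18S genes are near-identical copies, so reads may be split between them, but both moved the same way. The 5.8S genes were near the limit of detection: AT2G01020 had 2.56, 1.92 and 1.05 CPM against 13.8 CPM (6 reads) and did not pass the test (limma adjusted p = 0.168).

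Several further entries fell with the ribosomal RNA. The entry ENSRNA049451242-T1 had 69.2, 99.8 and 95.9 CPM in the enriched libraries against 892 CPM in the unenriched one, a 10.1-fold loss. ENSRNA049494572-T1 had 64.1, 59.5 and 64.3 CPM against 501 CPM, and ENSRNA049493837-T1 had 74.4, 46.1 and 34.8 CPM against 193 CPM. The annotation table used here does not hold these entries, so they are given by their IDs. AT5G06845, a long non-coding RNA gene, had the largest fitted loss among the called genes with 100 CPM or more in the higher group, with 12.8, 3.84 and 4.22 CPM against 106 CPM (log2 change -3.71 ± 0.59 SE, limma adjusted p = 0.000393), on 11 reads over the 3 enriched libraries.

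Of the coding genes, RALFL33 and RALF23, which encode secreted RALF signalling peptides, fell 4.29-fold and 3.52-fold by their means. RALF23 had 64.1, 57.6 and 68.5 CPM in the enriched libraries and 223 CPM in the unenriched one, and RALFL33 had 41.0, 34.6 and 36.9 CPM against 161 CPM. DRT100, a leucine-rich repeat protein, had 79.5, 44.2 and 71.7 CPM against 212 CPM. AT2G07671, of the ATP synthase subunit c family, had 46.2, 36.5 and 29.5 CPM against 156 CPM. In each of these 4 genes every enriched library was below the unenriched one, and limma's adjusted p lay between 0.00083 and 0.00341. All 20 of these largest gains and losses lost their call when no filter was applied or enriched replicate 3 was left out, and 18 of them with quantile normalization, with adjusted p-values of up to 0.629 in limma. Without replicate 3 the log2 changes were 5.83 for AT2G24060 and -3.32 for AT3G41768, while limma's prior degrees of freedom for the spread went from 29.7 with all 3 replicates to 2.31 without replicate 3.

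**Figure D2:**
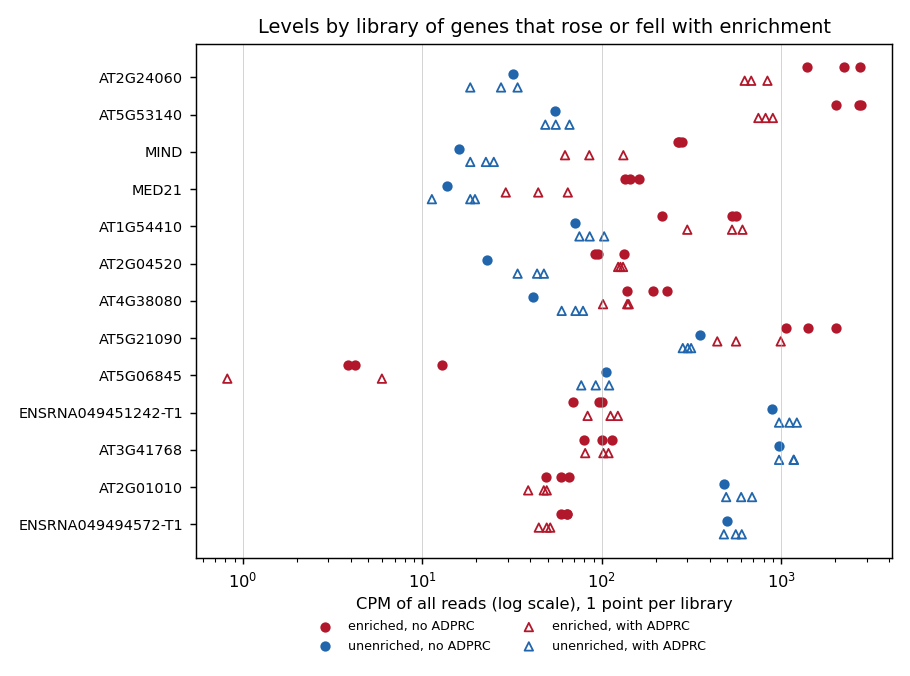
CPM of all reads on a log scale for the 8 largest gains (top) and the 5 largest losses (bottom), 1 symbol per poly(A) library; red is enriched, blue unenriched, filled circles are without and open triangles with ADPRC, and a library with 0 reads has no symbol. The enriched libraries lie apart from the unenriched ones on the same side with and without the enzyme, and for AT2G24060 and AT5G53140 the enriched libraries without ADPRC lie above those with it.

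Genes at 0 in one group were rare at levels the depth could resolve. In all, 1167 genes had reads in every enriched library and none in the unenriched library, but just 15 of them were at 10 CPM or more in each enriched library. After QWRF4, the highest means were those of AT2G31150 (2.56, 48.0 and 43.2 CPM), NUDT16 (35.9, 28.8 and 11.6 CPM) and IRT1, the iron transporter of the root epidermis (10.3, 17.3 and 47.4 CPM). These values spread widely between replicates. In the other direction 313 genes had reads in the unenriched library and none after capture, and 0 of them reached 10 CPM.

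Capture with ADPRC was measured in 6 other libraries and mostly went in the same direction for these genes. In their own fit 563 of 18831 genes were higher (2.99%) and 369 lower (1.96%) after capture. Of the 267 genes higher without ADPRC, 249 had a positive log2 change with it, 96 were called higher and 0 lower. Of the 66 lower genes, 66 had a negative change with ADPRC, and 54 were called lower and 0 higher. Over the 2505 genes at 50 CPM or more, the changes without and with ADPRC had a Pearson r of 0.739 and a Spearman rho of 0.700. This is across genes, which are not independent replicates, and the changes share no library.

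The measured gains of the leading genes were smaller with the enzyme. AT2G24060 stood at 625, 837 and 680 CPM in the enriched libraries with ADPRC and at 18.5, 27.5 and 34.0 CPM in the unenriched ones, a 26.8-fold difference. AT5G53140 stood at 897, 818 and 746 CPM against 66.1, 48.5 and 55.4 CPM, a 14.5-fold difference. MIND was 4.23-fold and MED21 2.79-fold higher after capture with ADPRC. The median log2 change of the 267 genes was 1.88 without ADPRC, the contrast that chose them, and 0.78 with it. Ribosomal RNA fell with the enzyme as well: AT3G41768 went from 1171, 1176 and 972 CPM to 80.8, 109 and 102 CPM. The median of the 66 lower genes was -1.28 without and -1.18 with ADPRC.

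**Figure D3:**
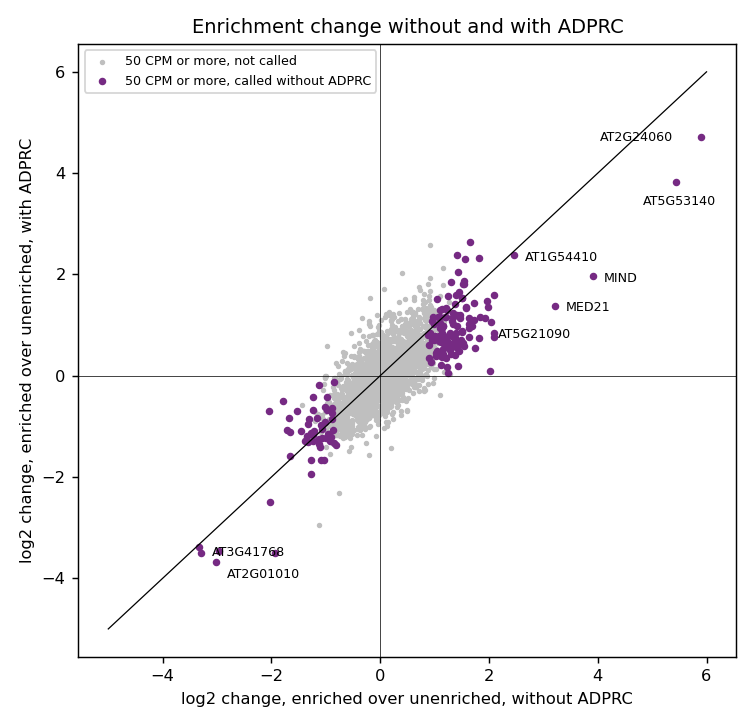
Log2 change from unenriched to enriched poly(A) RNA without ADPRC (x axis) and with ADPRC (y axis). The genes shown have a mean of 50 CPM or more over the 4 libraries without ADPRC. Purple points were called without ADPRC, and the diagonal marks equal change. AT2G24060, AT5G53140, MIND and MED21 lie below the diagonal, and the 18S genes AT3G41768 and AT2G01010 lie near it.

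Whether the change on capture differs with the enzyme was tested as an interaction over the 10 poly(A) libraries. No gene of 19871 was called (0% in either direction; 1393 genes at an unadjusted p under 0.05; edgeR called 1 higher and 2 lower). For AT5G53140 the log2 change was 1.62 ± 0.28 (SE) larger without ADPRC, with a limma adjusted p of 0.142. Same-numbered enriched libraries with and without ADPRC deviated from their group means together (correlations of 0.469, 0.440 and 0.364). Pairs that included a same-numbered unenriched library with ADPRC had correlations of only 0.0156 to 0.148. With the replicate number as a block, which also covered those unenriched libraries, limma called 3 genes higher without ADPRC and 3 lower. They are named here after their values were seen.

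AT5G53140 was 1 of these 6 genes (adjusted p = 0.0204 in limma with the block). The genes lower without ADPRC gained reads on capture with the enzyme. AT3G04840, a protein of the small ribosomal subunit, had 228, 180 and 312 CPM in the enriched and 177 CPM in the unenriched libraries without ADPRC, a fold of 1.36. With ADPRC it had 645, 683 and 737 CPM against 132, 174 and 200.1 CPM, and 340 of 758, 407 of 834 and 369 of 910 of its enriched reads carried the tag. AT5G22580 was 1.07-fold higher without and 3.40-fold higher with ADPRC. ATG8C, a ubiquitin-like protein of autophagy, had 17.9, 32.6 and 40.1 CPM after capture against 46.0 CPM without ADPRC, and 115, 111 and 143 CPM against 39.6, 37.1 and 42.9 CPM with it. Their limma adjusted p-values with the block were 0.0204 for AT3G04840 and AT5G22580 and 0.0429 for ATG8C.

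The remaining genes were DEX1, at 23.1, 19.2 and 16.9 CPM after capture without ADPRC and with no read in the unenriched library, and the long non-coding gene AT3G06355. With ADPRC, DEX1 had 4.25, 8.19 and 11.3 CPM after capture against 10.6, 9.69 and 14.3 CPM before it, so the unenriched libraries with ADPRC did hold the transcript. AT3G06355 overlaps a 5.8S ribosomal RNA gene and had 87.2, 217 and 147 CPM against 308 CPM without ADPRC. With ADPRC its levels were 37.4, 102 and 76.2 CPM against 484, 591 and 486 CPM. For AT3G06355 the enriched libraries were below the unenriched ones under both conditions. The limma adjusted p-values with the block were 0.0481 for DEX1 and 0.0429 for AT3G06355.

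Most of the abundant photosynthesis transcripts did not pass the test of capture without ADPRC. RBCS1A, a Rubisco small subunit gene and the most abundant entry after capture, had 23812, 26728 and 28974 CPM in the enriched libraries and 17155 CPM in the unenriched one without ADPRC, a log2 change of 0.62 (limma adjusted p = 0.178). CAB1, a light-harvesting chlorophyll-binding protein of photosystem II, had 19089, 20503 and 17449.8 CPM against 24753 CPM (-0.38; limma adjusted p = 0.472). RBCS3B had 16879, 17713 and 17449.8 CPM against 15538 CPM. Ranked by the level after capture, 0 of the 10 most abundant genes passed the test, but that ranking leaves out genes that fell on capture. LHB1B2, at 12867 CPM in the unenriched library, is such a gene and is described with the light-harvesting list. The RBCS and CAB genes are near-identical copies whose reads may be split.

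In the 14 gene lists, 6 of 216 tested members rose (2.78%, against 1.66% of all genes tested) and 7 fell (3.24%, against 0.411%); the lists hold many abundant genes, and these shares were not tested against each other. Of 20 light-harvesting genes 0 rose and 1 fell, with a median log2 change of -0.20 against 0.10 over all genes tested. The member that fell was LHB1B2, at 7615, 7552 and 6748 CPM against 12867 CPM (log2 change -0.82, limma adjusted p = 0.0434), which overlaps the non-coding entry AT2G08665 (7602, 7592 and 6829 CPM against 13192 CPM), so reads of the overlapping entries cannot be assigned with certainty. Of 31 photosystem and electron transport genes 0 rose and 2 fell. These were PSAN, a subunit of photosystem I (3431, 3091 and 2729 CPM against 6546 CPM, log2 change -1.09), and PSBO2, of the oxygen-evolving complex (687, 808 and 938 CPM against 1458 CPM, -0.86). The 4 Rubisco small subunit genes (median 0.25), 15 Calvin cycle genes (-0.11) and 13 photorespiration genes (-0.32) had 0 called members.

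Among the genes of protein synthesis and folding, 3 of 54 genes named as ribosomal proteins rose and 1 fell. RPS15AD (126, 119 and 146 CPM against 46.0 CPM), STV1 and RPS28 had log2 changes of 1.45, 1.18 and 1.14. The 1 that fell, SSR16, is a plastid ribosomal protein of the small subunit, with 1300, 1177 and 1146 CPM against 2238 CPM (-0.89, limma adjusted p = 0.0225). Of 12 chaperone genes 1 rose and 1 fell. BIP1, the chaperone of the endoplasmic reticulum, had 41.0, 23.0 and 62.2 CPM against 9.20 CPM (log2 change 1.86, limma adjusted p = 0.0268), and HSC70-1 of the cytosol had 785, 538 and 765 CPM against 1284 CPM (-0.90, limma adjusted p = 0.0360). The unenriched level of BIP1, 9.20 CPM, lay close to the 6.90 CPM that a count of 0 reads allows. The 11 translation factors and 5 polyubiquitin genes had 0 called members.

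Of 10 actin and tubulin genes 1 fell, ACT8 (254, 188 and 234 CPM against 476 CPM), and of 4 metallothionein genes 1 rose, MT1C (292, 480 and 639 CPM against 143 CPM). The myrosinase system had 0 called members of 6. Organelle-encoded transcripts were scarce in poly(A) RNA: 8 plastid-encoded genes could be tested, with 0 called. Of 23 mitochondrial genes 1 rose, ATMG00030 (131, 156 and 116 CPM against 55.2 CPM), and 1 fell, ATMG01370 (0, 3.84 and 4.22 CPM against 32.2 CPM). No member of any list was called in the interaction with ADPRC without the block. List members such as PSAN, PSBO2, the 3 ribosomal proteins and ATMG01370 are named after their values were seen. All called members other than ATMG01370, which has no value there, lost their call without replicate 3, with adjusted p-values of up to 0.629 in limma. LHB1B2, BIP1, STV1, RPS28 and ATMG00030 also lost it with median centring, and LHB1B2, PSBO2, HSC70-1, SSR16 and ATMG00030 without replicate 2. A pseudocount 4 times smaller removed the calls of LHB1B2, PSBO2, HSC70-1, BIP1, ACT8, SSR16, ATMG00030 and ATMG01370. ATMG01370 was called in 7 of 11 settings, and lost its call also with no filter, quantile normalization or a mean of at least 10 CPM. BIP1 was called in 6 of 13 settings, and lost its call also with edgeR and with all 10 poly(A) libraries in 1 fit. Against the 3 unenriched libraries with ADPRC, RPS15AD and STV1 lost their call too, with log2 changes of 0.37 and 0.51.

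**Figure D4:**
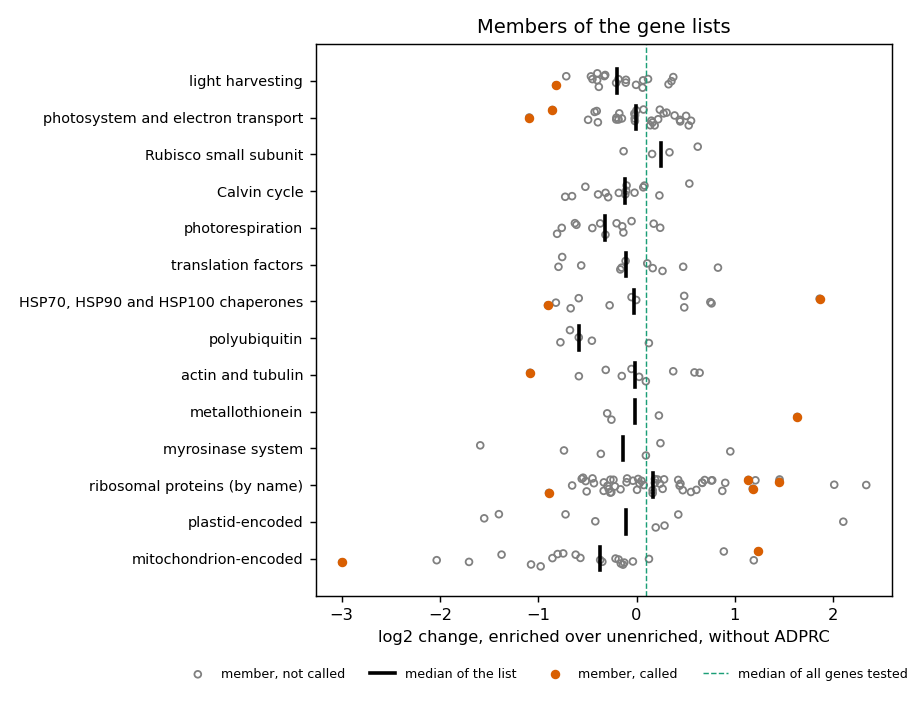
Log2 change from unenriched to enriched poly(A) RNA without ADPRC for each tested member of the 14 gene lists; filled orange points passed the test, open points did not, the black bar is the median of the list and the dashed line the median of all genes tested (0.10). Most members lie within 1 log2 unit of 0, and every list has at most 4 orange points.

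The tag itself was rare without ADPRC, and far rarer before capture than after it. Tagged reads numbered 513, 1166 and 2082 in the enriched replicates 1, 2 and 3 without ADPRC, which is 0.132%, 0.224% and 0.220% of all reads, and 9 in the unenriched library. The unenriched share was 0.00207% (95% Wilson interval 0.00109% to 0.00393%, counting error only). The enriched mean of 0.192% ± 0.0521 (SD, n = 3) was 92.6 times the unenriched share, and the single libraries were 63.5 to 108 times it. All enriched libraries lay above the unenriched library; an exact two-sided permutation test gave p = 0.25, the smallest this design of 3 against 1 allows. With ADPRC the shares were 19.6% ± 5.00 (SD, n = 3) after and 0.625% ± 0.104 (SD, n = 3) before capture.

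The background tagged reads came from many genes with few reads each. They fell on 344, 659 and 1115 genes in the 3 enriched libraries, and 275, 526 and 855 of these had 1 tagged read. A tagged read was found in all 3 libraries for 91 genes, which held 1521 tagged reads, in 2 libraries for 245 genes and in 1 library for 1355 genes. The most tagged genes were CAB1, with 9, 30 and 49 tagged reads, RBCS1A, with 9, 27 and 28, and RBCS3B, with 7, 18 and 31. CAB3 (5, 24 and 21) and CAB2 (8, 14 and 23) followed. The 9 tagged reads of the unenriched library fell on 9 genes: CAB2, CAB3, the photosystem II genes PSBW and PSBTN, DI19, PLAT1, THI2.2, AT2G32090 and AT2G41945.

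Genes with a higher level in all reads held more of the tagged reads. Tagged reads are part of all reads, so this would also hold if every gene had the same tagged share. Over the 226 genes at 500 CPM or more in the enriched libraries, the share of tagged reads and the level in all reads had a Spearman rho of 0.720, across genes of the same libraries. The share of tagged reads that fell on a gene without ADPRC had a rho of 0.669 with that share with ADPRC. A gene's own tagged share, its tagged reads over all its reads, had a rho of 0.159 between the conditions. Many of these genes had few tagged reads without ADPRC, so counting error enters this second value. The Rubisco small subunit genes gave 5.11%, 5.38% and 5.73% of all reads and 3.51%, 4.03% and 3.70% of tagged reads in the enriched libraries without ADPRC. With ADPRC they gave 8.16%, 7.60% and 6.50% of all reads and 15.1%, 14.1% and 14.1% of tagged reads. So their share of tagged reads lay below their share of all reads without the enzyme and above it with the enzyme, in 3 of 3 libraries each.

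The light-harvesting genes showed the opposite order. They gave 11.7%, 12.7% and 11.4% of all reads and 13.1%, 16.2% and 14.2% of tagged reads without ADPRC. With ADPRC they gave 9.38%, 10.8% and 10.2% of all reads and 6.10%, 8.07% and 7.88% of tagged reads. Tagged exceeded all reads in each library without the enzyme and fell short in each library with it. The difference between conditions was not tested for these sums.

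Set against all reads of the same library, 3 of the 226 genes were over-represented among tagged reads without ADPRC (1.33%) and 5 under-represented (2.21%) in limma, and 44 passed an unadjusted p under 0.05. The median log2 difference was -0.30 at a pseudocount of 858 in tagged reads scaled like CPM, the worth of 1 tagged read. SSR16 had 3, 4 and 10 tagged reads of 507, 613 and 1087 reads in replicates 1, 2 and 3, which is 17 tagged reads where its level gave an expectation of 4.43 (log2 difference 1.40 ± 0.13 SE, limma adjusted p = 0.00686). GAPA, a Calvin cycle glyceraldehyde-3-phosphate dehydrogenase, had 2, 3 and 11 tagged reads of 382, 456 and 1255, against 4.28 expected in all (1.28, limma adjusted p = 0.00932). TCTP, the translationally controlled tumour protein homologue, had 10, 10 and 16 of 2267, 2053 and 3386, or 0.467% of its reads (1.18, limma adjusted p = 0.0255). These calls rest on few reads: without replicate 1 no gene was over-represented, and without replicate 3 no gene was called in either direction (adjusted p of 0.118 for SSR16 in limma).

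The genes that limma called under-represented had no tagged read at all, and the most captured transcripts were among them. For such genes the tagged value is the pseudocount in every library, so limma's p leaves out the counting error of tagged reads, and edgeR's p on the reads is given instead. AT5G53140 had 0 tagged reads of 4824 over the 3 libraries, where 9.96 were expected (edgeR adjusted p = 0.00230), which allows a tagged share of up to 0.0622%. AT2G24060 had 0 of 4111, where 8.61 were expected (edgeR adjusted p = 0.00759). AT5G21090 had 0 of 2676, where 5.21 were expected, and did not pass in edgeR (adjusted p = 0.111). AT5G53140, AT2G24060 and AT5G21090 stood at 55.2, 32.2 and 352 CPM in the unenriched library without ADPRC. Their expected counts rest on the levels after capture, by which they were also named as gains. ACP4, a plastid acyl carrier protein, and PDE334, a subunit of the chloroplast ATP synthase, had 0 of 2061 and 0 of 1734 and did not pass in edgeR (adjusted p = 0.277 and 0.341). With edgeR on the tagged reads, 7 genes were over- and 4 under-represented. It called RBCS1A, with 64 tagged reads where 104 were expected, and PSBX, a photosystem II subunit with 18 where 36.4 were expected, as under-represented.

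**Figure D5:**
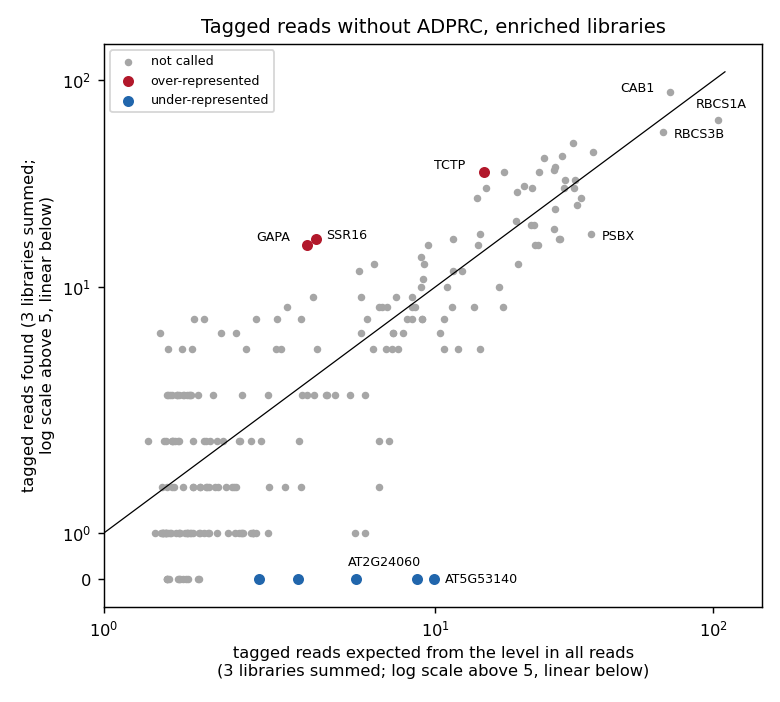
Tagged reads expected from the level in all reads (x axis) and found (y axis), summed over the 3 enriched libraries without ADPRC, for 226 genes at 500 CPM or more; scales are logarithmic above 5 and linear below, and the line marks equality. SSR16, GAPA and TCTP lie above the line, and the 5 genes called under-represented by limma, AT5G53140 and AT2G24060 among them, lie at 0.

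The leading gains on capture without ADPRC were almost all untagged reads. The 10 genes with the largest gains held 14278 reads in the 3 enriched libraries without ADPRC. Of these reads 1, of AT1G54410, was tagged, where the tagged share of the libraries gave an expectation of 29.3. That expectation uses the same all-read levels by which the genes were chosen, so the shortfall is no independent result. With ADPRC the same 10 genes had 754 tagged of 11491 reads, 6.56%, where 2276 were expected. They differed among themselves there. AT5G53140 had 1 tagged of 2973 reads (0.0336%), AT2G24060 17 of 2596 (0.655%), MIND 6 of 336 (1.79%) and MED21 5 of 166 (3.01%). AT1G54410 had 267 of 1751 (15.2%) and AT2G04520 132 of 462 (28.6%). The 4 largest gains were the 4 with the lowest tagged shares of the 10 with ADPRC.

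The largest losses differed widely in how often they carried the tag with ADPRC. Together, the 10 genes with the largest losses had 418 tagged of 2384 reads (17.5%) in the enriched libraries with ADPRC. The tagged share of these libraries gave an expectation of 471, and 6 of the 10 genes had a tagged read. RALF23 had 231 tagged of 507 reads (45.6%) and RALFL33 95 of 289 (32.9%) in the enriched libraries with ADPRC. After capture with ADPRC, RALF23 stood at 174, 120.4 and 126 CPM against 225, 200.3 and 166 CPM, 0.711 of the unenriched level, where it was 0.284 of it without ADPRC. The 18S gene AT3G41768 had 1 tagged of 354 reads with ADPRC, and AT2G01010 0 of 164, which allows up to 1.83%.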

How the data were processed

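The authors deposited 2 tables, of all reads and of tagged (NAD-RNA) reads per gene and library, named TPM per the file headers. The deposited values behave as CPM of all reads of a library: 100% of the 177708 all-read and 38774 tagged values above 0 were whole multiples of 1 read within 0.01, so reads were recovered. The sources used here do not give the aligner, the build, the strand handling or how tagged reads were recognised. Of 22337 gene IDs, 22084 matched the TAIR10.1 table, used for symbols, biotypes and overlaps, and 5739 overlap another listed gene. The table held 1 entry that names no gene, which was left out.

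Limma 3.58.1 in R 4.3.3 (trend, two-sided) was run on log2(CPM + 2.11), where 2.11 is the median over libraries of the smallest value above 0 (1.70 for the 10 libraries). Such folds understate changes of low genes. The Benjamini-Hochberg threshold was 0.05 over all genes tested. Tagged and all reads were compared within libraries, with the library as a block. edgeR 4.0.16 and DESeq2 1.42.0 were run on recovered reads, as alternatives. Scripts were tested on simulated data. Named genes are the 10 called genes with the largest change per direction whose libraries do not overlap and whose higher group has 100 CPM or more, the 10 most abundant and most tagged genes, those over- and under-represented, those tagged in the unenriched library, and called or abundant list members. Members and lists were chosen with earlier results of these data known. The replicate block took all numbered poly(A) libraries as paired by number, the unenriched ones with ADPRC included. The correlations given above were weak for pairs with those unenriched libraries. The labels name no shared batch.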

Additional observations from a re-analysis of the deposited data

Results flagged for a closer look

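Signals in the enriched total RNA libraries, which no comparison above uses, concerned the same transcripts. These libraries are shallow, with 1237 reads without and 6479 with ADPRC, 1 library each, so the values have no replicate check. Without ADPRC, AT2G24060 stood at 3234 CPM (4 reads; 0.323% of reads, 95% Wilson interval 0.126% to 0.828%, counting error only), and AT5G53140 had 0 reads, which allows up to 2425 CPM. With ADPRC, AT2G24060 had 2 reads (309 CPM), below the limit of 463 CPM that a count of 0 allows there. The 18S genes AT3G41768 and AT2G01010 stood at 6467 and 3234 CPM in the library without ADPRC. With ADPRC, AT3G41768 stood at 6328, AT2G01010 at 6946, ENSRNA049451242-T1 at 9878 and ENSRNA049494572-T1 at 7717 CPM. Apart from AT2G24060 with ADPRC and AT5G53140, these values lie above the limit that a count of 0 allows.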

How the results depend on the processing

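For enriched against unenriched poly(A) RNA without ADPRC, the 333 calls became 203 with a pseudocount 4 times smaller, 0 with no filter on low genes, 2 with quantile normalization, 144 with median centring and 59 with DESeq2. They became 1911 with 4 unenriched libraries in a fit of enrichment and ADPRC, and 726 against the 3 unenriched libraries with ADPRC, an alternative chosen after seeing the data. Leaving out 1 enriched replicate gave 0 (without replicate 3) to 736 (without replicate 1). Limma's prior degrees of freedom were 29.7 with all replicates, 1.90 with no filter and 3.56 with quantile normalization. No paired analysis was possible for this comparison because the lone unenriched library carries no replicate number. The interaction with ADPRC gave 1 call among genes at a mean of 10 CPM or more, 3 with edgeR, 6 with the replicate block and 0 to 1 with 1 replicate left out.

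For tagged against all reads, the 8 calls became 16 with a pseudocount 4 times smaller, 179 at a mean of 200 CPM or more, 5 at 1000 CPM or more, 18 with no replicate block, and 0 to 23 with 1 replicate left out (0 without replicate 3, 23 without replicate 2). At 200 CPM or more 175 of the 179 were under-represented. Of the named genes, AT5G38420 (RBCS2B) turned to 0.50, ATMG01390 to -0.61 and ATCG01180 to -0.88 with 4 unenriched libraries, and ATCG01180 to -0.63 against the 3 unenriched libraries with ADPRC; none of the 3 was called before. The causes were not tested. With 9 tagged reads before capture, no gene's tagged share can be read there.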
